A study of Mus musculus with 4 samples.

Results

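Genes of the bone morphogenetic protein (BMP) and transforming growth factor beta (TGF-beta) families were compared between Ift88-deleted and control chondrocytes of the mouse growth plate. The set was chosen by gene symbol and comprised 41 genes: ligands, receptors, and the secreted or membrane proteins that bind or block the ligands. Probe sets that named 1 of these genes and no other were found for 39 genes, of 18193 genes in all, and numbered 84 of 45037 probe sets. Bmp3 and Gdf6 had none and were not analysed here, and 1 further probe set that named Acvr2a together with another gene was left out. The 39 genes were 8 BMP and GDF ligands (12 probe sets), 6 TGF-beta and activin or inhibin ligands (12), 12 receptors (34) and 13 antagonists and binding proteins (26).

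Ligands of this superfamily are secreted dimers that bring together type I and type II serine/threonine kinase receptors, and the activated type I receptor phosphorylates Smad transcription factors. BMP and GDF ligands mostly signal through Smad1, Smad5 and Smad9, while TGF-beta and activin ligands signal through Smad2 and Smad3. In cartilage BMP signals promote chondrocyte differentiation and proliferation, TGF-beta restrains terminal differentiation, and soluble antagonists set how far each ligand acts. The primary cilium is best known for Hedgehog signalling, and receptors of the TGF-beta family have been found there too.

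The control group was 2 samples from mice labelled wild-type, and the Ift88-deleted group was 2 samples from Col2aCre;Ift88fl/fl mice, all C57BL/6 and at postnatal day 7. Ift88 encodes an intraflagellar transport protein needed to build the cilium, and the Cre driver directs its deletion to the Col2a-expressing cartilage lineage, a group the labels also call cilia-deleted. Proliferative-zone tissue was dissected with a needle out of tibia and femur sections 40 µm thick, and 50 ng of total RNA was amplified through 2 cycles for Affymetrix arrays. The design names biological replicates. Whether a sample was 1 animal or a pool, and whether controls carried Cre or a floxed allele, is not given in the sources used here. The p-values rest on the spread between these samples alone, which the fit pools in part over all genes or probe sets.

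Each deposited value is a log2 departure from its probe set's own median, so levels cannot be compared between genes. Because that median is 0, the middle 2 of a probe set's 4 values are equal and opposite, and the sign of a single value has no meaning of its own. A gene's value is the mean over its probe sets. Differences are Ift88-deleted minus control, with standard errors and 95% intervals from limma, and adjusted p is Benjamini-Hochberg over all 18193 genes.

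The tissue and the arrays set limits on every value that follows. All 10 chondrocyte markers (Col2a1, Acan, Sox9 and others) had a probe set in the brightest class, and their mean was 0.04 and -0.02 in the controls and 0.10 and -0.08 in the Ift88-deleted arrays. Ift88 itself, by 1 probe set, was at 0.08 (SE 0.154, 95% interval -0.30 to 0.46), and whether the probe set falls within the deleted exons was not examined; leaving out Ift88-deleted 1 turned the value to -0.06. Xist was at 3.58 and 3.74 in the controls and -3.79 and -3.61 in the Ift88-deleted arrays, with Eif2s3y on Y the other way round, so sex by these genes and genotype cannot be told apart for any member. Skeletal muscle markers had means of 0.26 and 0.36 in the controls against -0.18 and -0.21 in the Ift88-deleted arrays, with 9 of 9 genes lower by group mean (9433 of all 18193 genes were). Their medians were closer, at 0.05 and 0.23 against -0.07 and -0.06. The largest differences were those of Tnni2 (-1.96) and Mylpf (-1.05), and the groups lay apart for 5 of the 9 (55.6%, against 33.3% of all genes). Control 2 stood high for osteoclast and marrow markers (means of 1.07 and 0.75, medians of 0.98 and 0.63) and for the articular marker Prg4 (7.52; median of the articular list 0.57). Ift88-deleted 1 stood high for perichondrial markers (mean 0.82, median 0.45). Hypertrophic markers were split, with Mmp13 (2.45) and Ibsp (1.30) highest in control 2, and Col10a1 (0.72), Ihh (0.68) and Alpl (0.765) highest in Ift88-deleted 1. Of 4 osteoblast markers Dmp1 (-0.72) and Sp7 (-0.54) had both Ift88-deleted arrays below both controls, while Col1a1 and Ifitm5 overlapped. In tissue samples fewer cells of a type and less RNA per cell cannot be told apart, and the part of these markers in the results was not tested.

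Of the 39 genes 0 passed an adjusted p under 0.05 in limma, against 0.011% of all genes, and 0 passed at 0.1 (0.0605% of all genes). That 0.011% was 2 genes, Xist and Eif2s3y, by which the groups differ in sex. At an unadjusted p under 0.05 there were 3, Gdf10 and Bmp7 lower and Fstl1 higher, which is 7.69% against 5.96% of all genes (2.29% higher, 3.68% lower). The groups did not overlap for 14 of the 39 (8 higher, 6 lower), which is 35.9% against 33.3% of all genes (14.7% higher, 18.6% lower). An absolute difference over 0.5 was seen in 3 members (7.69%) and in 4.16% of all genes. The median difference was 0.00 over the members and -0.01 over all genes, and the median absolute difference 0.135 against 0.110. By these counts the set as a whole lay close to the background, so the description turns on single members.

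**Figure D1:**
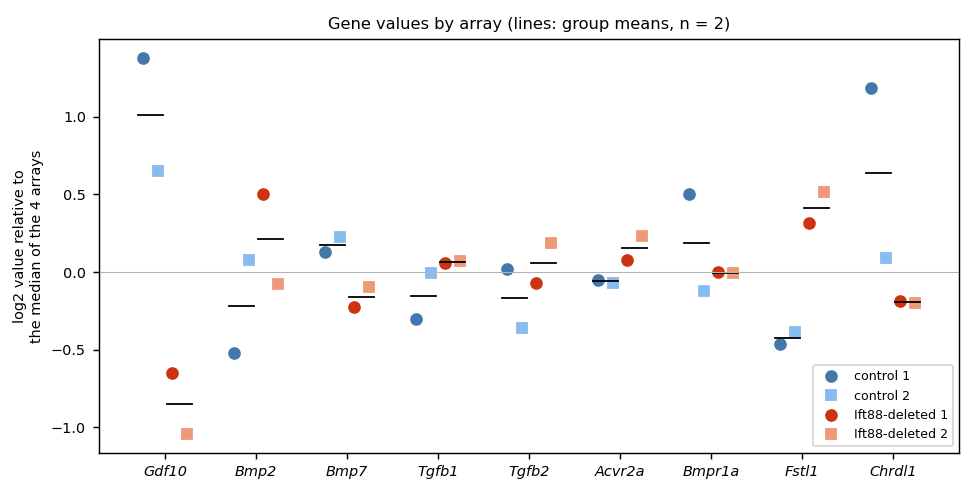
The log2 value of each array relative to the median of the 4 arrays is plotted for 9 members, with controls in blue, Ift88-deleted arrays in red, circles for replicate 1, squares for replicate 2 and black lines for group means (n = 2). Gdf10 lies at 1.38 and 0.65 in the controls and at -0.65 and -1.04 in the Ift88-deleted arrays, Fstl1 runs the other way, and Chrdl1 and Bmpr1a stand high in control 1 alone.

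Gdf10, also called BMP3b, is a divergent member of the BMP family known from cartilage and bone, and had the largest difference of the set. Its single probe set (1424007_at) was at 1.38 and 0.65 in the controls and at -0.65 and -1.04 in the Ift88-deleted arrays. Both controls lay above both Ift88-deleted arrays, and the gap of 1.30 between the nearest arrays of the 2 groups exceeded that between the controls (0.73) and between the Ift88-deleted arrays (0.39). The difference was -1.86 (SE 0.27, 95% interval -2.52 to -1.19), 3.63-fold lower, with an adjusted p of 0.238 over all genes in limma. Its p ranked 40th of the 18193 genes, and 0.077% of genes had a larger absolute difference. Leaving out Ift88-deleted 1 gave -2.06, Ift88-deleted 2 -1.66, control 1 -1.50 and control 2 -2.22. No p is given for these fits, since each leaves 1 array in a group. Renewed quantile normalization gave -1.90, with an adjusted p of 0.048 by gene and 0.0974 by probe set in limma. The direction was the same in each alternative. With all arrays kept, the adjusted p by gene ran from 0.048 to 0.331 over the alternatives, on both sides of the threshold. By probe set the adjusted p was 0.341 over all probe sets. Gdf10 lies on chromosome 14 (33923587 to 33936514, GRCm38.p6), as do Ift88 (57424064 to 57517936) and the members Bmpr1a (34411061 to 34503336) and Bmp4 (46383525 to 46390669).

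The 250 bases before the annotated start are shown for Gdf10 and for Fstl1, the members with the lowest and the highest difference, so that their composition can be compared. Both come from the RefSeq promoter table of GRCm38.p6, plus strand, which held 29 of the 39 genes. Gdf10 is chr14:33923337-33923586 and Fstl1 is chr16:37776805-37777054, and capitals mark a CAGAC, the short sequence that Smad3 and Smad4 bind.
Gdf10: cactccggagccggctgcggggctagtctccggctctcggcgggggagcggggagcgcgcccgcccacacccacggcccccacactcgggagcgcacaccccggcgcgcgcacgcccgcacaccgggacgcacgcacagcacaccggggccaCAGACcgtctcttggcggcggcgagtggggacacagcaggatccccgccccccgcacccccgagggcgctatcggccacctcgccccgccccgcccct
Fstl1: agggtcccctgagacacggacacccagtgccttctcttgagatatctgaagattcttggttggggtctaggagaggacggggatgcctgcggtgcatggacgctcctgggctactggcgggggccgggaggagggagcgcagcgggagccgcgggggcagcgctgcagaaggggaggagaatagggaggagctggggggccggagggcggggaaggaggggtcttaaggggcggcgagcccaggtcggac
Both strands were searched for 5 sequences, none of which contains another. The GLI consensus GACCACCCA was in 0.225% of all 32851 windows and in 0 of the 35 windows of members. The palindrome of the Smad box, GTCTAGAC, was in 0.167% of all windows and in 0 of members. The single Smad box CAGAC was in 42.2% of all windows and 54.3% of those of members. The GC-rich element GGCGCC, bound by BMP-activated Smads, was in 9.59% and 20%. The TATA element TATAAA was in 12.4% and 14.3%. Gdf10 held 1 Smad box, 98 bases before the start, and Fstl1 held none of the 5 sequences. The Gdf10 window was 78.8% G or C with 35 CG dinucleotides and that of Fstl1 68% with 16, where the medians were 64.4% and 16 over the windows of members and 52.4% and 6 over all windows.

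Bmp7, a ligand that supports skeletal and kidney development, gave 2 concordant probe sets and 1 that showed no separation. Probe set 1418910_at was at 0.30 in both controls and at -0.34 and -0.30 in the Ift88-deleted arrays (difference -0.61, SE 0.135, adjusted p = 0.549 over all probe sets in limma). Probe set 1435479_at was at 0.15 and 0.30 against -0.15 and -0.16 (difference -0.38, SE 0.142, adjusted p = 0.789). Within each of these the groups lay apart and the controls were the higher arrays. The third, 1432410_a_at, was at -0.07 and 0.07 against -0.18 and 0.16, with overlap. The mean over all 3 was -0.335 (SE 0.13, adjusted p = 0.83), and it was -0.01 when the brightest class alone was used, since only the third probe set belongs to it.

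Bmp2, which drives chondrocyte maturation, was at -0.52 and 0.08 in the controls and 0.50 and -0.08 in the Ift88-deleted arrays. The groups overlapped, and the difference of 0.43 (SE 0.272, 95% interval -0.24 to 1.10) was smaller than the gap within either group (0.60 and 0.58). Leaving out 1 array gave 0.13 to 0.73. Bmp4, another BMP of cartilage, was higher in control 2 alone (0.42, against -0.03 to 0.03 in the other arrays), giving -0.20. Bmp5, Bmp6, Gdf5 (a joint-forming ligand) and Gdf11 had differences of 0.03, -0.07, 0.06 and -0.03, all with overlapping groups. Over the 8 BMP and GDF ligands the median was -0.05, and the groups lay apart for 2, both lower, which is 25% against 33.3% of all genes (18.6% lower). That median was -0.24 when control 1 was left out, 0.125 for control 2, -0.126 for Ift88-deleted 1 and 0.04 for Ift88-deleted 2, so its sign depended on the arrays kept.

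TGF-beta and activin or inhibin ligands lay between -0.08 and 0.225 by gene, with a median of 0.08 and 5 of 6 above 0 (8760 of all 18193 genes were). None had an unadjusted p under 0.05 by gene. Tgfb1, the most widely expressed TGF-beta, was at -0.30 and -0.01 in the controls and 0.06 and 0.07 in the Ift88-deleted arrays by gene. The groups lay apart by this value (difference 0.22, SE 0.149, 95% interval -0.15 to 0.59). Leaving out control 1, the lowest array, brought the difference to 0.07, and leaving out control 2 to 0.37. Of its probe sets 1420653_at had the groups apart (0.31), while 1445360_at overlapped (0.13).

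Tgfb2, which is made by growth plate chondrocytes, differed among its 4 probe sets. Probe set 1450923_at was at -0.15 and -0.34 in the controls and 0.15 and 0.31 in the Ift88-deleted arrays (difference 0.48, SE 0.153, adjusted p = 0.734 over all probe sets in limma). Probe set 1438303_at also had its groups apart upward (0.26), 1450922_a_at was low in control 2 alone (-0.68) and 1423250_a_at ran downward with overlap (-0.18). The gene value was 0.02 and -0.36 in the controls and -0.07 and 0.19 in the Ift88-deleted arrays (difference 0.225, SE 0.181), and it was 0.04 without control 2 and 0.41 without control 1. Tgfb3 was high in Ift88-deleted 1 (0.62) and low in Ift88-deleted 2 (-0.35), around a difference of 0.13. The activin and inhibin subunit genes Inha, Inhba and Inhbb were at 0.02, 0.02 and -0.08, and the probe sets of Inhbb lay apart in opposite directions (-0.27 and 0.12).

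**Figure D2:**
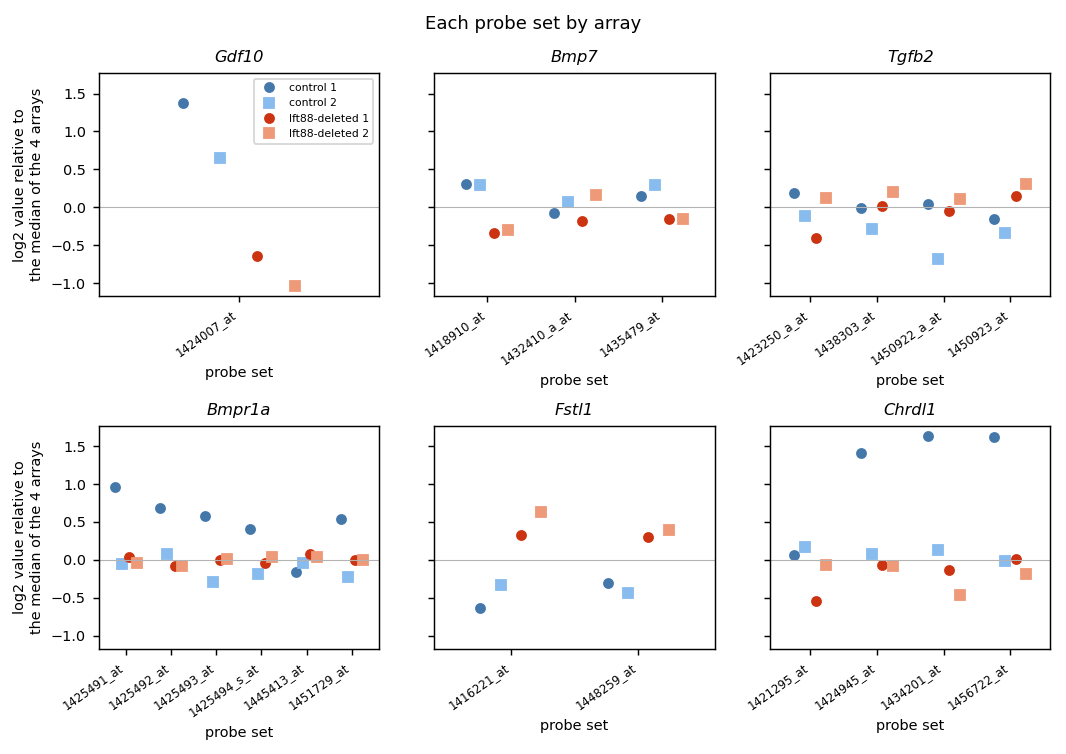
Each probe set of 6 genes is plotted by array as the log2 value relative to the median of the 4 arrays, with controls in blue, Ift88-deleted arrays in red, circles for replicate 1 and squares for replicate 2. Both probe sets of Fstl1 separate the groups, 2 of 3 of Bmp7 do, and 5 of 6 of Bmpr1a and 3 of 4 of Chrdl1 set control 1 apart from the other 3 arrays.

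Receptors lay between -0.19 and 0.21 over 12 genes, with 6 above and 6 below 0. Their median was 0.01, and all 12 lay within 0.25 of 0, as did 14698 of all 18193 genes. The largest by size was Acvr2a, an activin type II receptor, at -0.05 and -0.07 in the controls and 0.08 and 0.23 in the Ift88-deleted arrays (difference 0.21, SE 0.13, 95% interval -0.11 to 0.53). Its separation came from 1437382_at (0.41), as 1451004_at was at 0.02 with overlap.

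Bmpr1a, a main BMP type I receptor of cartilage, was set by control 1. Its gene value was 0.50 and -0.12 in the controls and 0.00 and -0.01 in the Ift88-deleted arrays, giving -0.19 (SE 0.219, 95% interval -0.73 to 0.35). The 5 probe sets of the brightest class were each highest in control 1 (0.41 to 0.96), while the sixth, 1445413_at, was lowest there (-0.16). Without control 1 the difference turned to 0.12, and without control 2 it was -0.51.

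Tgfbr2, the TGF-beta type II receptor, lay lower in both Ift88-deleted arrays by gene (0.05 and 0.15 against -0.11 and -0.06, difference -0.19, SE 0.126). Its probe set 1426397_at was at 0.14 and 0.16 against -0.14 and -0.18, and 1422019_at, of the dimmest class, was between -0.02 and 0.03 in all arrays. Tgfbr1, its type I partner, lay the other way (-0.11 and -0.01 against 0.09 and 0.05, difference 0.13). By gene value Bmpr2 (0.13) and Acvr1 (0.18) also had both Ift88-deleted arrays above both controls. Every probe set of Acvr1 overlapped by itself, as did 1441652_at of Bmpr2 (-0.05). Eng (-0.09), a co-receptor best known from endothelium, had the Ift88-deleted arrays below by gene value, with overlap in each probe set. Tgfbr3, the co-receptor betaglycan, was at 0.18, Bmpr1b at -0.03, Acvr1b at 0.03, Acvr2b at 0.00 and the endothelial receptor gene Acvrl1 at -0.04, with overlap in each. The 12 intervals reached no lower than -0.73 and no higher than 0.54, before any adjustment for their number.

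Fstl1, a secreted follistatin-like glycoprotein reported to bind BMP ligands, had the largest upward difference of the set. By gene it was at -0.47 and -0.38 in the controls and 0.31 and 0.51 in the Ift88-deleted arrays. The groups lay 0.70 apart at their nearest, against 0.08 between the controls and 0.20 between the Ift88-deleted arrays. The difference was 0.84 (SE 0.137, 95% interval 0.50 to 1.18), 1.79-fold higher, with an adjusted p of 0.312 over all genes in limma. Probe set 1416221_at gave 0.96 and 1448259_at 0.72. Among the 24 members with several probe sets Fstl1 was the single gene whose probe sets all lay apart in 1 direction, a pattern that 5.76% of all such genes had. Leaving out 1 array gave 0.74 to 0.94. With all arrays kept, the adjusted p by gene ran from 0.158 to 0.463 over the alternatives. It lies on chromosome 16 (37777055 to 37836516).

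Chrdl1, a chordin-like BMP antagonist, was high in control 1 alone. By gene it was at 1.18 and 0.09 in the controls and at -0.19 and -0.20 in the Ift88-deleted arrays. The groups did not overlap, but control 1 stood 1.09 above control 2 while control 2 stood 0.28 above the nearer Ift88-deleted array. The difference was -0.83 (SE 0.342, 95% interval -1.67 to 0.01, adjusted p = 0.83 in limma), -0.28 without control 1 and -1.375 without control 2. Of its probe sets 1424945_at, 1434201_at and 1456722_at were at 1.41 to 1.63 in control 1, and 1421295_at at 0.06. Chrdl1 lies on chromosome X, and the groups differ in sex by Xist.

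The other antagonists had smaller differences. Bambi, a membrane decoy receptor induced by BMP and TGF-beta signals, was low in Ift88-deleted 2 alone (-1.04, against -0.11, 0.11 and 0.23), and its difference of -0.40 was 0.23 without that array and -1.04 without Ift88-deleted 1. Fst (follistatin, which binds activin) was at -0.30, with 0.04 and 0.39 against -0.17 and 0.01. Nog (noggin) was at -0.19 and Chrd (chordin) at -0.18, both with overlap, and Grem1 (gremlin) at 0.11 and Fstl3 at 0.09, both with the Ift88-deleted arrays higher by under 0.1 at the nearest. Twsg1, a chordin partner, was at -0.10.

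Latent TGF-beta binding proteins, which hold TGF-beta in the matrix, had overlapping groups in all 4 genes: Ltbp1 at -0.13, Ltbp2 at -0.245, Ltbp3 at 0.22 and Ltbp4 at 0.07. Ltbp1 held a probe set that was high in control 2 (1448870_at, 0.80) beside one near 0 in all arrays (1419786_at). Over the 13 antagonists and binding proteins the median was -0.13, with 8 below 0 (9433 of all 18193 genes were). The median ranged from -0.232 to -0.003 as single arrays were left out.

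**Figure D3:**
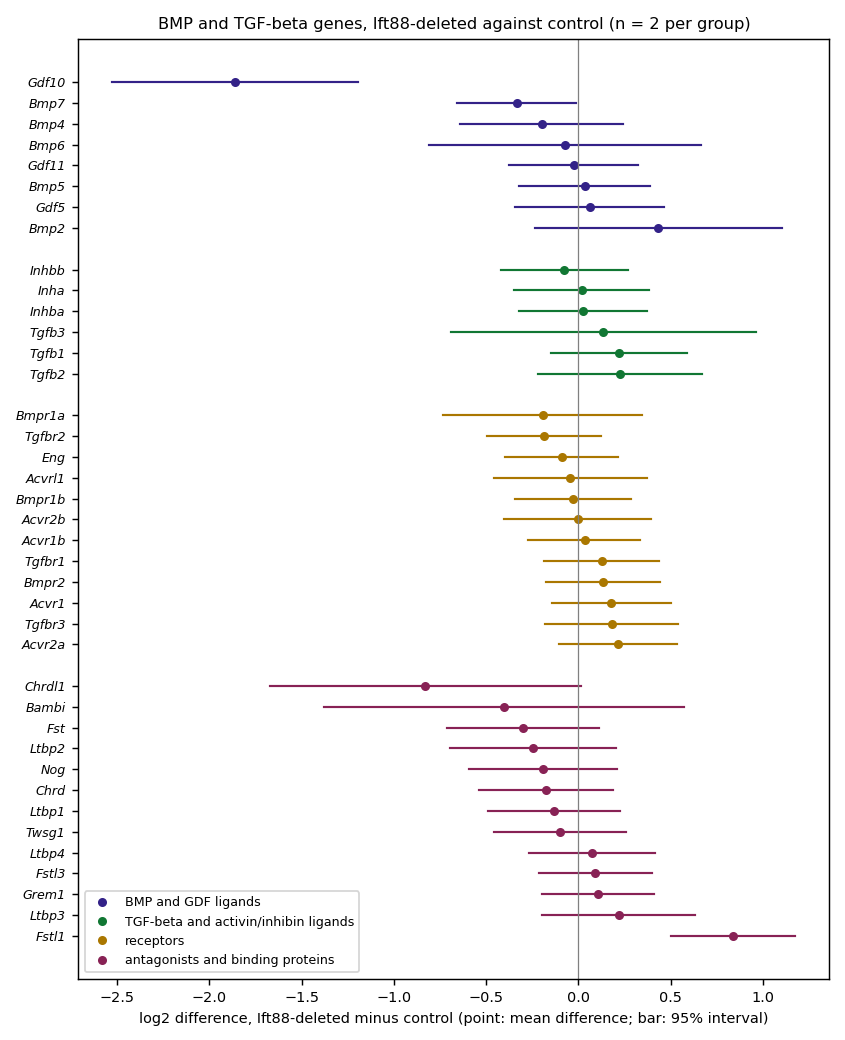
The log2 difference of each of the 39 members is drawn as a point with its 95% interval from limma, grouped and coloured by class (n = 2 per group). The intervals of Gdf10, Bmp7 and Fstl1 leave out 0 before adjustment, and those of the 12 receptors all span it.

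The arrays that stood out among members are given here beside those of the whole table, with no test of the difference. The array farthest from 0 was control 1 in 42.3% of all genes but in 9 of the 39 members (23.1%), and control 2 in 14 (35.9%, against 22.3% of all genes). Among the 13 antagonists and binding proteins control 2 was farthest in 6. The sign of the difference was the same in all 4 fits that left out an array for 23 of the 39 members, 59.0% against 46.4% of all genes. By the probe set fit 0 of the 84 member probe sets passed at 0.05, against 0.0444% of all probe sets, and 0 at 0.1, against 0.06%. An unadjusted p under 0.05 was found in 6, with 3 higher and 3 lower, which is 7.14% against 6.17% (3.0% higher, 3.18% lower): those of Gdf10, both of Fstl1, 2 of Bmp7 and 1 of Tgfb2. Groups lay apart in 33 of the 84 (20 higher, 13 lower; 39.3%, against 33.6%, of which 16.2% higher and 17.4% lower), and 8 had an absolute difference over 0.5 (6.13% of all probe sets). Of the 24 genes with several probe sets 13 had all of them in 1 direction (41.5% of all 9010 such genes had). By a coarse class of original signal, 36 member probe sets fell in the brightest class (42.9%, against 32.1% of all probe sets) and 7 in the dimmest (8.33%, against 16.4%).

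Other genes of the pathway were read from lists that share no member with the set except Ltbp2. All of these lists were chosen with earlier results of these data known. Their shares beside those of all genes are therefore a description and no test. Of 13 other ligands and 7 other receptors or co-receptors none had an unadjusted p under 0.05 in limma, and the differences lay between -0.22 and 0.27. Of 18 further antagonists and binding proteins 4 did (22.2%, against 5.96% of all genes), 1 higher and 3 lower. Chrdl2, a relative of Chrdl1, was at 0.58 and 0.29 in the controls and -0.57 and -0.29 in the Ift88-deleted arrays (difference -0.87, SE 0.169). Kcp, a chordin-like protein, was at 0.94 and 0.24 against -0.24 and -0.30 (-0.86, SE 0.237). Dcn, the proteoglycan decorin, which binds TGF-beta, was at -1.25 and -0.17 against 0.26 and 0.22 (0.95, SE 0.34). Both Kcp and Dcn had control 1 at the far end, and without it were at -0.51 and 0.41. Adjusted p values were 0.416, 0.682 and 0.818.

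Of 11 genes that act on latent TGF-beta or on pro-ligands, 1 lay lower and 1 higher at an unadjusted p under 0.05 in limma (18.2%, against 5.96% of all genes). Itgb8, the integrin subunit that activates latent TGF-beta, was at 1.56 and 0.82 in the controls and -0.82 and -1.06 in the Ift88-deleted arrays. Its single probe set belonged to the dimmest class, and the difference was -2.125 (SE 0.259, 4.36-fold lower, adjusted p = 0.162 in limma). It passed after renewed quantile normalization (adjusted p = 0.048 in limma). Over the alternatives with all arrays kept the adjusted p was as high as 0.367. Leaving out 1 array gave differences from -2.50 to -1.75. Furin, a protease that cleaves pro-ligands, was at -0.235 and -0.14 against 0.14 and 0.38 (0.45, SE 0.143). The other integrin subunits Itgav, Itgb5 and Itgb6 lay between -0.06 and 0.125.

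Downstream, 12 of 14 Smads and Smad regulators lay above 0, where 8760 of all 18193 genes did. The median of the 14 was 0.15 against -0.01 for all genes. Of the 14, 2 had an unadjusted p under 0.05 in limma (14.3%, against 5.96% of all genes). Ski, a Smad co-repressor, was at -0.44 and -0.15 against 0.15 and 0.425 (0.58, SE 0.169), and the inhibitory Smad7 at -0.195 and -0.20 against 0.37 and 0.28 (0.52, SE 0.124). Among 11 BMP-responsive genes an unadjusted p of that size was found for 6, of which 4 lay higher and 2 lower (54.5%, against 5.96% of all genes, 2.29% higher and 3.68% lower). As the list was chosen with earlier results known, this share is no test of enrichment. The 4 higher genes were Id2, Id3, Id4 and Atoh8. Their relative Id1, also on the list, was at 0.29 and -0.51 in the controls and 0.07 and -0.07 in the Ift88-deleted arrays. Its groups overlapped (difference 0.11, SE 0.268). Id4, an inhibitor of basic helix-loop-helix factors, was at -0.66 and -0.55 against 0.29 and 0.56 (1.035, SE 0.149), and its relative Id2 at -0.35 and -0.49 against 0.29 and 0.50 (0.82, SE 0.142). Dlx5, a bone and cartilage homeobox gene, was at 0.65 and 0.23 against -0.23 and -0.59 (-0.85, SE 0.203). The other lower gene was the osteoblast factor Sp7 (-0.54, SE 0.204), named after its value was seen, which is also on the osteoblast marker list beside Dmp1 (-0.72); the part of osteoblast RNA in these values was not tested. Of 11 TGF-beta-responsive genes 1 had such a p (9.09%), Klf10, at -0.19 and -0.13 against 0.92 and 0.13 (0.69, SE 0.262), and it was 0.29 without Ift88-deleted 1. In each of these lists 0 genes passed at an adjusted p of 0.05 in limma.

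**Figure D4:**
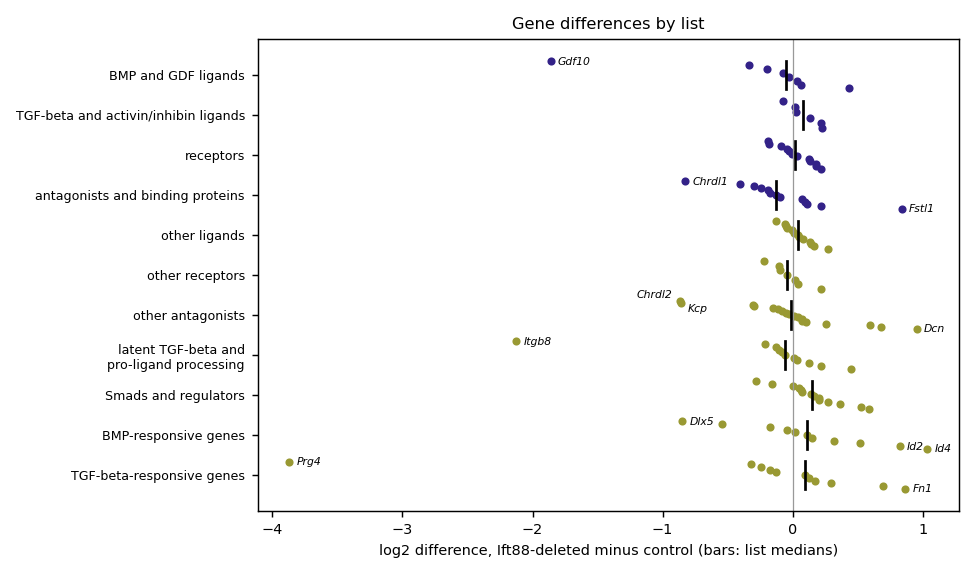
Points are the log2 differences of single genes, Ift88-deleted minus control, in the 4 classes of the set (dark) and in 7 further lists of the pathway (light), with black bars at list medians. Most points lie within 0.5 of 0, Gdf10 (-1.86) and Itgb8 (-2.125) lie far below, and Prg4 (-3.87) rests on control 2.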

How the data were processed

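The deposited values are log2, made with RMA per the submitters' processing notes, and the deposited table has the median of each probe set over the 4 arrays subtracted (largest departure from 0, 5e-07); the log base is inferred from the values and from RMA. Of the probe sets, 64 controls were left out, and 34945 named 1 gene. A gene's value was their mean. limma 3.58.1 under R 4.3.3 fitted the group alone (lmFit, eBayes without trend, 3.83 prior and 2 residual degrees of freedom) to all 18193 genes and, by itself, to all 45037 probe sets. An exact permutation test of 2 against 2 cannot give a p under 0.333. Classes of original signal were read from the single-precision steps of the values and are coarse: 21.9% of the brightest class also met the next coarser step. A class is set by the step that all array differences of a probe set share, so it follows the lowest array. Members and lists were chosen with earlier results of these data known. Values by array are given for members with an unadjusted p under 0.05 by gene, or by probe set with groups apart, for the 2 largest differences of each class, and for at most 3 genes of each pathway list; other members named with array values were chosen after these were seen. Alternatives covered normalization, probe set filters, the spread, the replicate block and leaving out arrays. On simulated data the fits gave back the mean differences that had been put in, which is no check of the calls. The number of arrays limits the precision.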

Additional observations from a re-analysis of the deposited data

How the results depend on the processing

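With all arrays kept, the count of 39 members that passed was 0 under the other settings except renewed quantile normalization, where it was 1 (Gdf10). No member probe set passed in those settings. Members with an unadjusted p under 0.05 numbered 4 to 6 as single arrays were left out (3 with all arrays), where all genes ran from 2.81% to 16.3%, and member probe sets 5 to 13 (6 with all arrays), where all probe sets ran from 2.40% to 15.6%. As single arrays were left out, members with groups apart numbered 25 to 29 (14 with all arrays), since 3 arrays are apart more often by construction. All genes then ran from 55.7% to 78.5%, the latter without control replicate 2, where members numbered 25 of 39. With single arrays left out the class medians ran from -0.236 to 0.125 (BMP and GDF ligands), 0.00 to 0.111 (TGF-beta and activin ligands), 0.025 to 0.137 (receptors) and -0.232 to -0.003 (antagonists). Restricted to brightest-class probe sets they were 0.361 (2 genes), 0.133 (7 genes) and -0.044 (7 genes) for the last 3 classes; fewer genes enter there. Of the 39 members 16 changed sign without at least 1 array. Among the genes named by rule the differences that turned were those of Bmpr1a without control replicate 1 (0.117; -0.506 to 0.117 over single arrays left out) and, as a label check, Ift88 without Ift88-deleted replicate 1 (-0.064; -0.064 to 0.224); the cause was not tested. The labels number the replicates without stating a pairing, and deviations of same-numbered arrays correlated at 0.139 over genes. With the replicate block 0 members and 0 member probe sets passed, 4 and 7 had an unadjusted p under 0.05, and no call changed.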
